A study of Mus musculus with 95 samples.

Results

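The Polycomb repressive complex genes described here are the listed subunits of Polycomb repressive complexes 1 and 2 (PRC1 and PRC2), the Polycomb deubiquitinase (PR-DUB) and the H3K27 demethylases. They were matched by symbol to the gene annotation, and all 41 were found among the 39179 genes of the expression table. Libraries of messenger RNA came from the striatum, cortex and liver of 6-month-old mice on a C57BL6/J background, each tissue of the brain being taken from the left hemisphere. The tested animals were heterozygotes (Het) of 2 knock-in lines in which the mouse Htt gene carries an expanded CAG repeat, the mutation of Huntington's disease. One is Z_Q175 (neo-) KI, strain CHDI-81003019, called neo-out here because it lacks the neo cassette, a drug selection marker used in gene targeting. The other is z_Q175 KI, strain CHDI-81003003, called neo-in, which keeps the cassette. Each line had its own wild-type (WT) littermates. Every group held 4 females and 4 males per tissue, except that striatum of neo-out Het males had 3, so that 95 libraries from 32 animals were analysed. The allele is carried by every cell of the Het animals from conception, and each library is bulk tissue of 1 animal.

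Polycomb proteins hold developmental genes silent. PRC2 methylates lysine 27 of histone H3 through the catalytic subunits EZH1 or EZH2, while PRC1 ubiquitinates histone H2A through RING1 or RNF2 and comes in canonical forms, which read the PRC2 mark through a CBX protein, and variant forms built on RYBP or YAF2. PR-DUB, made of BAP1 and an ASXL protein, removes the ubiquitin, and the KDM6 enzymes remove the methyl marks. In adult neurons, which do not divide, EZH1 is the prevailing PRC2 enzyme, and loss of PRC2 from medium spiny neurons of the mouse striatum is known to derepress developmental regulators.

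Library totals ran from 31.02 to 68.4 M expected counts, and the Het animals carried 198 ± 9.4 (neo-out) and 191 ± 7.6 (neo-in) CAG repeats (SD, n = 8 each). Htt itself was lower in Het than in WT tissue in all 6 comparisons, by log2 changes between -0.57 in neo-in liver and -0.23 in neo-out striatum. Its level averaged 152 ± 15 CPM in Het and 192 ± 8.3 CPM in WT neo-in striatum (SD, n = 8 each), as counts per M of the unscaled library total. For the Polycomb genes, CPM are counts per M of the scaled library total. Of the 14 striatal projection neuron markers, 13 were lower and 1 was higher in Het striatum of both lines together, and their summed level did not overlap between genotypes. In neo-in striatum it ran from 2172 to 2466 FPKM in Het and from 3500 to 4184 FPKM in WT, and in neo-out striatum from 1916 to 2479 FPKM in Het and from 3225 to 3946 FPKM in WT. In bulk tissue, fewer cells of a type and less RNA per cell cannot be told apart. Among markers of other cells, 4 of 8 astrocyte, 3 of 9 oligodendrocyte, 3 of 8 microglial and 5 of 8 endothelial markers were lower in Het striatum, 1 astrocyte and 1 oligodendrocyte marker were higher, and none of 8 interneuron markers was called. Of 9 cortical excitatory neuron markers 2 were higher, and of 7 choroid plexus and ependyma markers 1 was lower. Over all genes tested there, 16.5% were called higher and 15.8% lower. No marker of these lists was at 0 in every library of a group. In 7 striatum libraries (2 Het, 5 WT) Slc17a7, a marker of cortical excitatory neurons, or Ttr, a marker of choroid plexus, lay over 3 times the median. The WT ones were neo-out female replicates 1, 3 and 4, neo-out male replicate 2 and neo-in female replicate 3. The Het ones were neo-out male replicate 4 and neo-in male replicate 2. Without them, replicate 2 is the only neo-out WT female left. A circadian clock score, the mean centred log2 CPM of 4 positive less that of 9 negative clock genes in each animal's liver, had medians of -0.20 in neo-in Het, -1.74 in neo-in WT, -0.42 in neo-out Het and 2.02 in neo-out WT animals. It ran from -1.61 to 1.91 in neo-out Het and from 1.58 to 3.59 in neo-out WT. Genotype and clock state can therefore hardly be told apart in that line. In neo-in the score ran from -2.59 to 1.07 in Het and from -2.58 to 0.192 in WT. The part of these shifts in the results on Polycomb genes was not tested, and values without those 7 libraries or with the clock score as a covariate are given where they change a call over both lines or a count by over 1.5 times.

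The 300-base promoter windows of RefSeq (build GRCm38.p6, mostly upstream of the annotated start) covered 34 of the 41 genes with 47 windows. The windows of Cbx8, Bap1, Scmh1, Scml2 and Rbbp7 are printed because these genes were called in the striatum of each line and had an entry, with 1 of 2 windows for Scmh1, whose other window (chr4:120452994-120453293) holds none of the motifs. Capitals mark matches, on either strand, to any of 6 motifs: the E-box CACGTG, the CRE-type motif TGACG, the NRF1-type motif GCATGCG, the ETS-type motif CCGGAAG, the CCAAT box and the GC box GGGCGG. The first belongs to Cbx8 (chr11:119040864-119041163, minus strand), the second to Bap1 (chr14:31251239-31251538, plus strand) the third to Scmh1 (chr4:120405098-120405397, plus strand), the fourth to Scml2 (chrX:161162500-161162799, plus strand) and the fifth to Rbbp7 (chrX:162760122-162760421, plus strand).
Cbx8: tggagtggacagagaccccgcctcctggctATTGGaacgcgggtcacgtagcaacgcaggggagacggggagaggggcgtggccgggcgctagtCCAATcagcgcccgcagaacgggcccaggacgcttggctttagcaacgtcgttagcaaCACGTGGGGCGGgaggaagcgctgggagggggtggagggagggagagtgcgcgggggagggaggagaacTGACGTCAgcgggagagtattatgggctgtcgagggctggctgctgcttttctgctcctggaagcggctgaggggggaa
Bap1: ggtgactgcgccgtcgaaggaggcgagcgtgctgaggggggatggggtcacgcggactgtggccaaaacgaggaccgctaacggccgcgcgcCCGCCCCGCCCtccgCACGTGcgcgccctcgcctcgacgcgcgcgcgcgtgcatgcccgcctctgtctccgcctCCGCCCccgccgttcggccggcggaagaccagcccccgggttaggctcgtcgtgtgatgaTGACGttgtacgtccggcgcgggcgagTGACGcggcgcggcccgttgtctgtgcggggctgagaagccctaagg
Scmh1: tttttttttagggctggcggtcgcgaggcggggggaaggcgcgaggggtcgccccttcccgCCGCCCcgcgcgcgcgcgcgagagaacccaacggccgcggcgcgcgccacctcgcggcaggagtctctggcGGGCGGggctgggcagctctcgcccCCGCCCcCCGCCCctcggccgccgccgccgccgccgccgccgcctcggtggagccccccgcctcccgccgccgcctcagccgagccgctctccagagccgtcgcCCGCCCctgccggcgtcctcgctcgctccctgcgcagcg
Scml2: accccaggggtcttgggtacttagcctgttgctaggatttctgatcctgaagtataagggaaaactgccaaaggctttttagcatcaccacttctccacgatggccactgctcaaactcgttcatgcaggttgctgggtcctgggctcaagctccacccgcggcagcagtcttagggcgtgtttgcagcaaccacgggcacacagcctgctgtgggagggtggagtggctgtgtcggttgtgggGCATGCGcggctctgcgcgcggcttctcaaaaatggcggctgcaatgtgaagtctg
Rbbp7: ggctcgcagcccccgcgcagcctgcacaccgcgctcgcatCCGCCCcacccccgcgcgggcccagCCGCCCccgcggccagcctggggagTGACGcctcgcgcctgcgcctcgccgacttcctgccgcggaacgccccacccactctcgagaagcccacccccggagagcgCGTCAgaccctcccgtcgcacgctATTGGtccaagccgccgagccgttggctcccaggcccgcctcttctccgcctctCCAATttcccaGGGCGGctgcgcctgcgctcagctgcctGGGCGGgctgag
The Cbx8 window holds 1 CACGTG, directly followed by 1 GGGCGG, as well as 2 CCAAT on opposite strands and a pair of overlapping TGACG that form TGACGTCA. Bap1's window has 1 CACGTG, 2 TGACG and 3 GGGCGG, of which 2 share bases. Scmh1's window has a GC content of 81.3% and 5 GGGCGG with none of the other motifs. In the Scml2 window 1 GCATGCG is the sole match, and the Rbbp7 window holds the GC box 4 times, the CCAAT box 2 times and the CRE-type motif 2 times. CACGTG was in 23.4% of the Polycomb windows (11 of 47, from 11 genes) and in 7.15% of all 32851 windows of the genome. GGGCGG was in 68.1% of the Polycomb windows and 35.7% of all windows, TGACG in 36.2% and 20.8%, CCAAT in 36.2% and 37.4%, GCATGCG in 6.38% and 3.58%, and CCGGAAG in 6.38% and 8.86%. Median GC content was 64.3% over the Polycomb windows and 52.7% over all windows. These shares describe the letters of the windows and were not tested.

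Het striatum was compared with WT striatum first, within each line and over both. All 41 Polycomb genes were tested there among 17703 genes with edgeR's quasi-likelihood test, and a gene is called where the Benjamini-Hochberg adjusted p over all tested genes is below 0.05. In neo-in striatum 5 Polycomb genes rose and 5 fell, so that 24.4% were called, against 19.4% of all genes tested, of which 8.75% rose and 10.7% fell, and 6 were called with the clock score as a covariate. In neo-out striatum 5 rose and 4 fell, 22.0% against 18.0% of all genes (8.71% higher, 9.28% lower). Without the 7 Slc17a7-high or Ttr-high libraries 3 were called there, in a fit that holds fewer neo-out WT animals. Over both lines 10 rose and 6 fell, 39.0% against 32.3% of all genes (16.5% higher, 15.8% lower), where limma on log2 FPKM called 17 higher and 3 lower with the median of all genes at 0.05. These shares lie near the background, so the counts themselves set the Polycomb genes apart little from other genes of this tissue. The median log2 change of the 41 genes was 0.05 over both lines and that of all genes 0.01. The lines share no control animals, and 7 genes were called in both of them, each in the same direction: Cbx8, Scml2 and Asxl3 rose, and Epop, Scmh1, Bap1 and Rbbp7 fell. These are 70% of the 10 neo-in calls and 77.8% of the 9 neo-out calls. The same shares over all genes are not given here, so this overlap is not read as particular to Polycomb genes. A further 5 genes were called in 1 line, and Ezh1, Rnf2, Cbx6 and Kdm6b passed only in the fit of both lines together. No Polycomb gene passed the test of the difference between the lines' effects, in which 0.00565% of all genes were called, and none had an unadjusted p below 0.05 in edgeR's test. DESeq2 and limma called 0 as well.

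**Figure D1:**
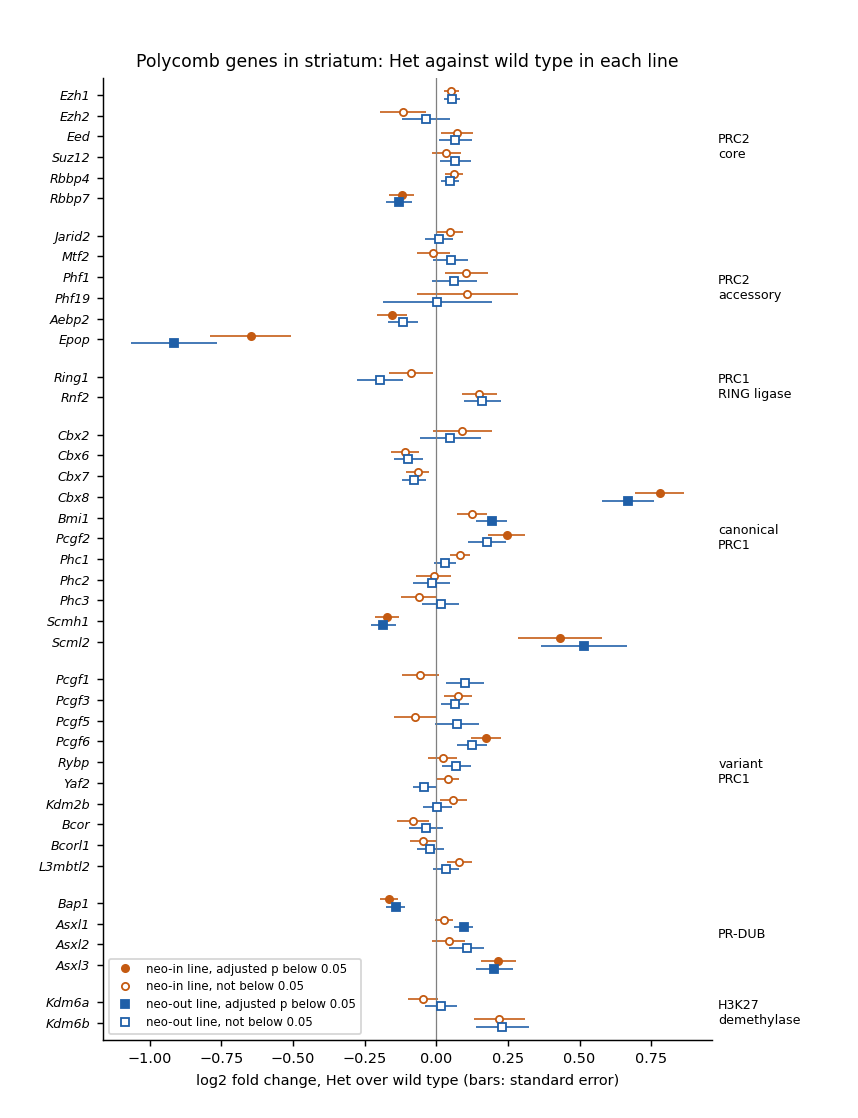
Log2 change, Het over WT, of each Polycomb gene in striatum of the 2 lines, grouped by role, with bars for the standard error. Cbx8 and Scml2 lie farthest to the higher side and Epop farthest to the lower side in each line, and most other genes lie within about 0.25 of 0.

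Among the PRC2 core genes 1 rose and 1 fell over both lines, out of 6. Ezh1, the catalytic subunit that prevails in resting cells, had a lowest, median and highest level of 73.1, 76.3 and 79.6 CPM in neo-in Het striatum, against 71.4, 73.5 and 78.7 CPM in neo-in WT striatum. In neo-out striatum Ezh1 had 74.6, 78.0 and 80.5 CPM in Het, against 72.1, 74.1 and 79.3 CPM in WT. The genotypes overlapped widely in each line, and the change of Ezh1 over both lines was small, 0.05 ± 0.02 on the log2 scale (SE, adjusted p = 0.0325). Its call was lost in 8 of 31 fits that each left out 1 library, with an adjusted p of up to 0.113, as well as without the 7 Slc17a7-high or Ttr-high libraries and with the clock score. Ezh2, the enzyme of dividing cells, did not pass (log2 change -0.08 ± 0.06, adjusted p = 0.353). Suz12, a scaffold subunit, had a log2 change of 0.05 and the histone-binding subunit Rbbp4 of 0.05 (adjusted p = 0.069), and Eed, which binds the methyl mark, was not called either.

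Rbbp7, the X-linked paralog of Rbbp4, had 96.1, 106 and 117 CPM in neo-in Het striatum, against 102, 116 and 124 CPM in neo-in WT striatum. In neo-out striatum Rbbp7 had 97.9, 102 and 115 CPM in Het, against 104, 117 and 122 CPM in WT. The medians of Rbbp7 were lower in Het in each line, with overlapping ranges. Its change was -0.12 ± 0.04 in neo-in (adjusted p = 0.0419) and -0.13 ± 0.04 in neo-out (adjusted p = 0.0383). Each of these per-line calls was lost in 11 of 31 fits without 1 library (adjusted p up to 0.113 and 0.103), while the fall over both lines of -0.13 ± 0.03 (adjusted p = 0.00198) held in all 31. Rbbp7 shares 174 bp with Txlng on the opposite strand, and whether counting used strand is not given in the sources used here.

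Of the 6 PRC2 accessory genes none rose and 2 fell over both lines. Epop, whose product bridges PRC2 to the elongin complex, had 3.16, 4.98 and 6.74 CPM in neo-in Het striatum, against 6.91, 7.57 and 10.9 CPM in neo-in WT striatum. In neo-out striatum Epop had 2.96, 4.21 and 4.95 CPM in Het, against 6.08, 7.24 and 10.4 CPM in WT. Every Het library was below every WT library in each line. Such a gap, with Het below, was seen for 3.07% of all genes tested in neo-in and 2.78% in neo-out striatum. The change of Epop was -0.65 ± 0.14 in neo-in (adjusted p = 0.00122), -0.92 ± 0.15 in neo-out (adjusted p = 4.9e-05) and -0.78 ± 0.10 over both lines (adjusted p = 6.64e-07).

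Epop was also the gene with the largest gap between brain regions, its WT level being 2.56, 3.20 and 4.53 FPKM in striatum and 14.9, 24.8 and 30.8 FPKM in cortex (lowest, median and highest of 16 libraries each). The summed level of 9 cortical excitatory neuron markers in neo-in striatum ran from 65.7 to 91.2 FPKM in Het and from 60.4 to 131 FPKM in WT, and in neo-out striatum from 65.4 to 99.9 FPKM in Het and from 59.9 to 116 FPKM in WT. These ranges overlapped between genotypes, and the part of cortical tissue in the level of Epop was not tested. Without the 7 Slc17a7-high or Ttr-high libraries the change of Epop was -0.61 in neo-in, -0.85 in neo-out and -0.73 over both lines, and it was called in all 3.

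Aebp2, a DNA-binding cofactor of PRC2, had 77.1, 86.2 and 91.2 CPM in neo-in Het striatum, against 85.0, 94.4 and 106 CPM in neo-in WT striatum. In neo-out striatum Aebp2 had 79.2, 88.1 and 102 CPM in Het, against 85.5, 96.6 and 105 CPM in WT. Its change over both lines was -0.14 ± 0.04 (adjusted p = 0.00552). The neo-in change of Aebp2 of -0.15 ± 0.05 passed (adjusted p = 0.0323) but was lost in 8 of 31 fits without 1 library, with an adjusted p of up to 0.0954. Jarid2, which recruits PRC2, and the Polycomb-like genes Mtf2, Phf1 and Phf19 were not called.

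Canonical PRC1 gave 4 higher and 2 lower genes of 11. Cbx8, a chromobox subunit that reads the PRC2 mark, had 8.92, 12.2 and 15.0 CPM in neo-in Het striatum, against 5.71, 7.01 and 7.89 CPM in neo-in WT striatum. In neo-out striatum Cbx8 had 9.55, 11.1 and 11.96 CPM in Het, against 5.83, 6.90 and 7.89 CPM in WT. The genotypes did not overlap in either line, as for 1.54% of all genes in neo-in and 1.69% in neo-out with Het above. Cbx8 rose by 0.78 ± 0.09 on the log2 scale in neo-in (adjusted p = 9.91e-08) and by 0.67 ± 0.09 in neo-out (adjusted p = 2.93e-06), and it passed in females and in males of each line taken alone.

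Cbx8 lies on chromosome 11 (GRCm38, chr11:119036305-119040969, minus strand), and Cbx2 lies beside it (chr11:119022962-119031270, plus strand). Cbx2 did not pass, with a log2 change of 0.07 ± 0.07 over both lines (adjusted p = 0.512).

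Cbx6 and Cbx7 had the highest FPKM levels in brain among the listed chromobox genes. Cbx6 had 281, 305 and 342 CPM in neo-in Het striatum, against 299, 329 and 394 CPM in neo-in WT striatum, and in neo-out striatum 265, 309 and 334 CPM in Het, against 310.0, 318 and 351 CPM in WT. It fell by 0.10 ± 0.04 over both lines (adjusted p = 0.0262). That call was lost without 1 library, neo-out Het male replicate 3 (adjusted p = 0.0557), and without the 7 Slc17a7-high or Ttr-high libraries (adjusted p = 0.485). Cbx7 had a log2 change of -0.07 (adjusted p = 0.0619).

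Scmh1 and Scml2 encode sterile alpha motif proteins of PRC1, and they moved in opposite directions. Scmh1 had 60.3, 63.5 and 66.7 CPM in neo-in Het striatum, against 66.2, 70.8 and 79.9 CPM in neo-in WT striatum. Scmh1 in neo-out striatum had 56.1, 60.9 and 64.4 CPM in Het, against 64.8, 69.0 and 76.5 CPM in WT. Het and WT libraries of Scmh1 were fully apart in neo-out, and 7 of 8 Het libraries were below all WT libraries in neo-in. Its change was -0.17 ± 0.04 in neo-in (adjusted p = 0.00309), -0.19 ± 0.04 in neo-out (adjusted p = 0.00233) and -0.18 ± 0.03 over both lines (adjusted p = 2.41e-05). Without the 7 Slc17a7-high or Ttr-high libraries the neo-out call was lost (adjusted p = 0.0945).

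Scml2, an X-linked gene at a low level, had 1.83, 2.10 and 2.74 CPM in neo-in Het striatum, against 0.995, 1.51 and 2.40 CPM in neo-in WT striatum. Scml2 in neo-out striatum had 1.70, 2.15 and 2.83 CPM in Het, against 1.24, 1.57 and 1.93 CPM in WT. Medians of Scml2 were higher in Het, with overlap in each line. It rose by 0.47 ± 0.10 over both lines (adjusted p = 0.000739). The per-line calls, 0.43 ± 0.15 in neo-in (adjusted p = 0.0343) and 0.52 ± 0.15 in neo-out (adjusted p = 0.0151), were lost without the 7 Slc17a7-high or Ttr-high libraries (adjusted p of 0.341 and 0.335). Leaving out 1 library ended the neo-in call in 7 of 31 fits (adjusted p up to 0.0883) and the neo-out call in 1, that without neo-out Het male replicate 2 (adjusted p = 0.0726).

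Pcgf2 and Bmi1 (also called Pcgf4) are the alternative PCGF subunits of canonical PRC1, and over both lines Pcgf2 rose by 0.21 ± 0.05 (adjusted p = 0.000656) and Bmi1 by 0.16 ± 0.04 (adjusted p = 0.00128). Pcgf2 had 20.1, 26.5 and 27.5 CPM in neo-in Het striatum, against 17.8, 20.1 and 27.04 CPM in neo-in WT striatum, and 21.3, 21.7 and 24.8 CPM in neo-out Het striatum, against 17.6, 19.6 and 22.5 CPM in neo-out WT striatum. Bmi1 had 56.0, 63.9 and 68.4 CPM in neo-in Het striatum, against 53.1, 55.8 and 64.1 CPM in neo-in WT striatum, and 53.4, 63.3 and 76.7 CPM in neo-out Het striatum, against 48.9, 58.3 and 61.1 CPM in neo-out WT striatum. Each was called in 1 line, Pcgf2 in neo-in (adjusted p = 0.0061) and Bmi1 in neo-out (adjusted p = 0.0105). The polyhomeotic genes Phc1, Phc2 and Phc3, which polymerise PRC1, did not pass.

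Of the RING ligase genes shared by all PRC1 forms, Rnf2 had 26.3, 29.5 and 35.2 CPM in neo-in Het striatum, against 24.7, 26.8 and 30.5 CPM in neo-in WT striatum. In neo-out striatum Rnf2 had 26.3, 30.9 and 38.1 CPM in Het, against 24.0, 28.8 and 29.9 CPM in WT. It rose by 0.16 ± 0.04 over both lines (adjusted p = 0.00724, and 0.0514 without the 7 Slc17a7-high or Ttr-high libraries). Rnf2 overlaps Trmt1l on the opposite strand by 158 bp. Ring1, its paralog, had a log2 change of -0.14 ± 0.06 and just missed the threshold (adjusted p = 0.0511).

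In variant PRC1, 1 gene of 10 rose and none fell. Pcgf6, the PCGF subunit of a variant PRC1 that silences germ-line genes, had 12.6, 14.3 and 15.8 CPM in neo-in Het striatum, against 10.4, 13.2 and 14.0 CPM in neo-in WT striatum. In neo-out striatum Pcgf6 had 13.9, 14.8 and 16.5 CPM in Het, against 12.8, 13.9 and 14.8 CPM in WT. It rose by 0.15 ± 0.04 over both lines (adjusted p = 0.00241), and of the single lines it passed in neo-in (adjusted p = 0.0165). Pcgf1, Pcgf3, Pcgf5, Rybp, Yaf2, Kdm2b, Bcor, Bcorl1 and L3mbtl2, the other subunits of variant PRC1, were not called.

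PR-DUB had 2 higher genes and 1 lower gene of 4. Bap1, its catalytic subunit, had 91.5, 96.9 and 101 CPM in neo-in Het striatum, against 101, 108 and 115 CPM in neo-in WT striatum. Bap1 in neo-out striatum had 89.8, 97.3 and 99.3 CPM in Het, against 99.1, 106 and 111 CPM in WT. All but 1 Het library of each line lay below every WT library of Bap1. It changed by -0.17 ± 0.03 in neo-in (adjusted p = 0.000196), by -0.14 ± 0.03 in neo-out (adjusted p = 0.00174, and 0.0677 without the 7 Slc17a7-high or Ttr-high libraries) and by -0.15 ± 0.02 over both lines (adjusted p = 2.61e-06).

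Asxl3, the ASXL partner of BAP1 with mainly neural expression, had 10.9, 12.2 and 15.3 CPM in neo-in Het striatum, against 9.26, 10.8 and 11.9 CPM in neo-in WT striatum. Asxl3 in neo-out striatum had 11.8, 13.3 and 14.9 CPM in Het, against 10.6, 11.6 and 13.4 CPM in WT. It rose by 0.21 ± 0.04 over both lines (adjusted p = 0.000476), by 0.22 ± 0.06 in neo-in (adjusted p = 0.0125) and by 0.20 ± 0.06 in neo-out (adjusted p = 0.0244, lost in 4 of 31 fits without 1 library, with an adjusted p of up to 0.0962). Asxl1 passed over both lines at 0.06 ± 0.02 (adjusted p = 0.0438), yet this was lost in 19 of 31 fits without 1 library (adjusted p up to 0.122) and under 6 of 7 other settings. Of the single lines Asxl1 passed in neo-out (0.096 ± 0.034, adjusted p = 0.0453) but not in neo-in (0.027 ± 0.032, adjusted p = 0.635). Asxl2 was not called.

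The demethylase Kdm6b had 22.2, 30.1 and 36.1 CPM in neo-in Het striatum, against 20.0, 25.7 and 32.1 CPM in neo-in WT striatum. In neo-out striatum Kdm6b had 22.3, 26.9 and 34.3 CPM in Het, against 22.3, 25 and 26.2 CPM in WT. It rose by 0.23 ± 0.06 over both lines (adjusted p = 0.00741), a call lost without the 7 Slc17a7-high or Ttr-high libraries and with the clock score. Kdm6a, its X-linked paralog, had a log2 change of -0.01 and was not called.

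**Figure D2:**
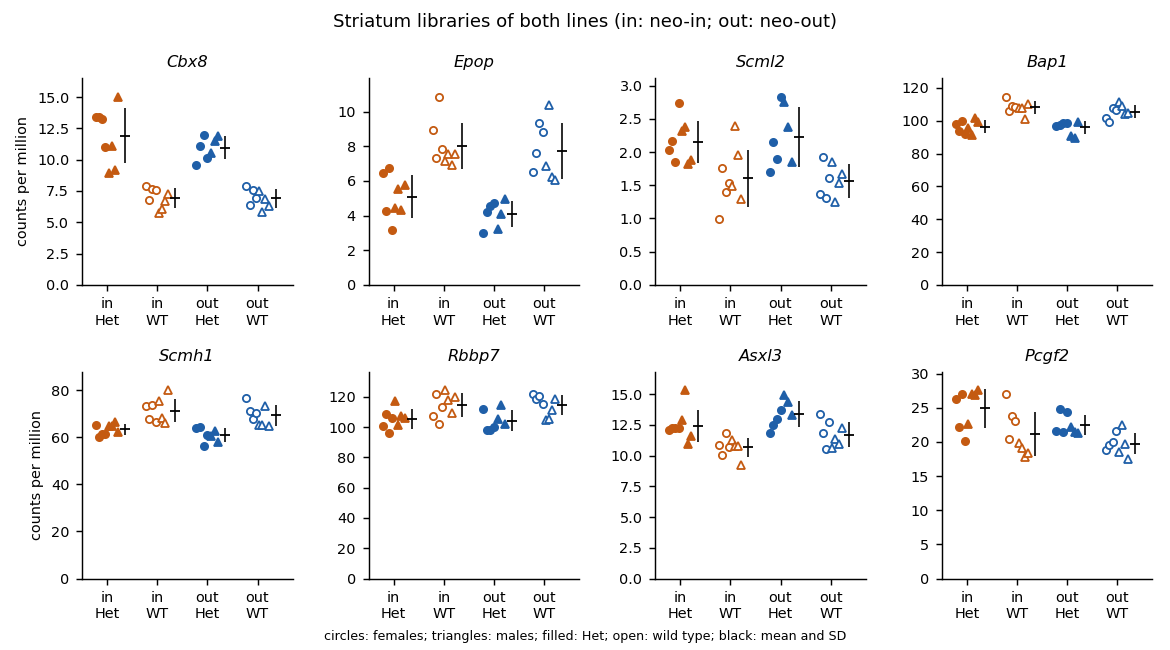
CPM (counts scaled to library size) of 8 Polycomb genes in every striatum library, Het (filled) left of WT (open) in each line, with circles for females, triangles for males and a black mark for the mean ± SD. Cbx8 and Epop separate the genotypes fully in both lines, while Scml2, Rbbp7, Asxl3 and Pcgf2 overlap.

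Females and males were also tested alone. Over both lines 9 Polycomb genes were called in female striatum (22.0%, against 18.9% of all genes) and 8 in male striatum (19.5% against 19.0%), and Cbx8, Epop, Scmh1 and Bap1 were called in both sexes. Within a line, 4 were called in neo-in females (8.26% of all genes), 4 in neo-in males (11.4%), 6 in neo-out females (11.9%) and 6 in neo-out males (9.91%). In neo-in males alone Epop missed the threshold (adjusted p = 0.0804). The test of the difference between the sexes called no Polycomb gene in either line, where 0.00565% of all genes passed in each line, although 5 and 11 Polycomb genes had an unadjusted p below 0.05 in neo-in and neo-out in edgeR's test. DESeq2 and limma called 0 too.

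Het cortex was then compared with WT cortex. No Polycomb gene was called in neo-in cortex (1.67% of all genes, 4 Polycomb genes at an unadjusted p below 0.05 in edgeR's test, 0 calls by DESeq2 or limma), 1 in neo-out cortex (2.44% against 2.80% of all genes) and 4 over both lines (9.76% against 6.83%). Cbx8 had 6.41, 8.77 and 9.36 CPM in neo-in Het cortex, against 6.09, 7.60 and 8.49 CPM in neo-in WT cortex, and 6.35, 8.43 and 9.95 CPM in neo-out Het cortex, against 5.81, 7.10 and 7.96 CPM in neo-out WT cortex. Its ranges overlapped in each line, and it rose by 0.24 over both lines (adjusted p = 0.00795). The neo-out call of Cbx8 (0.29, adjusted p = 0.0489) was lost in 19 of 32 fits without 1 library, with an adjusted p of up to 0.115.

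Ezh1 had 72.0, 73.5 and 80.0 CPM in neo-in Het cortex, against 65.9, 72.2 and 74.1 CPM in neo-in WT cortex. In neo-out cortex Ezh1 had 74.7, 77.1 and 81.7 CPM in Het, against 67.1, 72.5 and 77.0 CPM in WT. It rose by 0.08 over both lines (adjusted p = 0.0164), with ranges that overlapped. Phf1, a Polycomb-like accessory subunit of PRC2, had a log2 change of 0.16 (adjusted p = 0.0491), and Bap1 one of -0.07 (adjusted p = 0.0434). These calls of Phf1 and Bap1 were lost in 19 and 20 of 32 fits without 1 library, with adjusted p of up to 0.0901 and 0.0732. Phf1 overlaps Cuta on the opposite strand by 4090 bp. In neo-out cortex the summed cortical excitatory neuron markers ran from 684 to 745 FPKM in Het and from 787 to 847 FPKM in WT. In neo-in cortex they ran from 704.5 to 770.1 FPKM in Het and from 665.1 to 863.9 FPKM in WT, with overlap. The part of these markers in the changes of Ezh1, Phf1 and Bap1 was not tested.

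Striatal and cortical effects were compared in 1 fit with the animal as a block. For 5 Polycomb genes the effect in striatum less that in cortex passed over both lines (12.2%, against 12% of all genes). Cbx8 rose more in striatum than in cortex, by 0.47 (adjusted p = 0.000247), and the effect of Pcgf2 was higher by 0.19 (adjusted p = 0.0266). Effects in striatum were lower than in cortex for Epop (-0.71, adjusted p = 0.000162), Scmh1 (-0.22, adjusted p = 5.9e-05) and Cbx7 (-0.18, adjusted p = 0.00623). All 5 differences were also called with DESeq2's size factors, with no filter on low counts and with limma on log2 FPKM. Within single lines Epop and Scmh1 passed in each line and Cbx8 in neo-in, which makes 3 genes in neo-in (7.32%, against 5.42% of all genes) and 2 in neo-out (4.88% against 4.35%). Epop was not called in cortex itself, where it had 43.6, 55.6 and 65.8 CPM in neo-in Het, against 34.2, 56.2 and 64.1 CPM in neo-in WT, and 45.4, 52.4 and 64.6 CPM in neo-out Het, against 50.0, 59.7 and 71.8 CPM in neo-out WT.

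**Figure D3:**
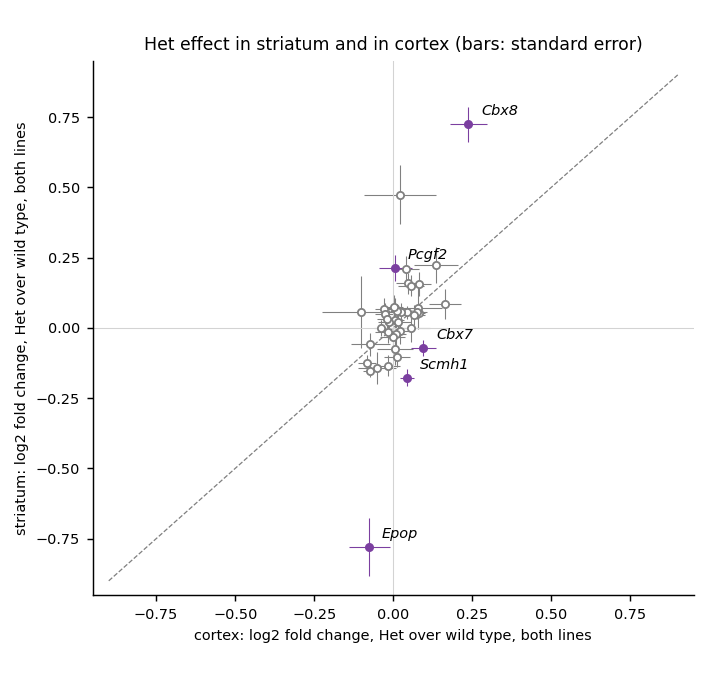
Log2 change, Het over WT, of each Polycomb gene over both lines in striatum (vertical axis) and cortex (horizontal axis), with standard errors and a dashed line where both are equal. The 5 filled and labelled genes differ between the tissues, Cbx8 (0.47) and Pcgf2 (0.19) above the line and Epop (-0.71), Scmh1 (-0.22) and Cbx7 (-0.18) below it.

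In liver 39 of the 41 genes passed the filter on low counts among 15208 genes. Scml2 and Asxl3 did not, with WT medians of 0.0101 and 0 FPKM. No Polycomb gene was called in neo-in liver (0.539% of all genes), in neo-out liver (0.533%) or over both lines (0.0658%), although 4, 5 and 4 of them had an unadjusted p below 0.05 in edgeR's test; DESeq2 and limma called 0. The median change of the 39 genes was -0.02. Rybp, which defines variant PRC1 together with Yaf2, was the only Polycomb gene whose genotype effect differed between the sexes, in neo-out liver (2.56%, against 0.112% of all genes). It had 14.5, 15.8 and 18.1 CPM in neo-out Het females, against 19.2, 21.9 and 23.3 CPM in neo-out WT females. In males it had 22.5, 26.7 and 31.9 CPM in neo-out Het, against 18.4, 22.4 and 22.6 CPM in neo-out WT (n = 4 each). The female effect less the male effect was -0.76 ± 0.15 (adjusted p = 0.0294). The call of Rybp was lost in 8 of 32 fits without 1 library, with an adjusted p of up to 0.0889, and the same difference in neo-in liver was 0.28 (adjusted p = 0.557). In neo-out females alone Rybp (-0.43) and Scmh1 (-0.35) were lower in Het than in WT liver (adjusted p = 0.0464 each, 0.289% of all genes lower).

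WT animals of the lines were compared with each other, a comparison added after the data had been seen. No Polycomb gene differed in WT striatum (0.469% of all genes, 5 Polycomb genes at an unadjusted p below 0.05 in edgeR's test, 0 calls by DESeq2 or limma). In WT cortex Bcor, a corepressor of variant PRC1, had 35.1, 43.7 and 51.7 CPM in neo-out, against 25.5, 34.4 and 39.9 CPM in neo-in, a log2 difference of 0.42 (adjusted p = 0.0079). It was the 1 gene called of 41 (2.44%, against 1.79% of all genes). In WT liver 5 genes were lower in neo-out than in neo-in (12.8%, against 4.45% of all genes in this direction and 9.36% in either). These were Jarid2 (-0.32), Phf19 (-0.58), Phc1 (-0.52), Pcgf1 (-0.43) and Pcgf3 (-0.28). Jarid2 had 9.27, 11.3 and 13.4 CPM in neo-out WT liver, against 12.4, 14.3 and 15.9 CPM in neo-in WT liver. The clock score of the animals ran from 1.58 to 3.59 in neo-out WT and from -2.58 to 0.19 in neo-in WT, with no overlap. With the score as a covariate all 5 calls were lost, and line and clock state cannot be told apart here. Phf19's call was also lost in 6 of 32 fits without 1 library, with an adjusted p of up to 0.0721.

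Sex was compared over all groups, also as an addition after the data had been seen. Kdm6a, the X-linked demethylase known to escape X inactivation, was the only Polycomb gene called in striatum (2.44%, against 0.378% of all genes) and in cortex (2.44% against 0.298%). It had a lowest, median and highest level of 9.21, 9.94 and 11.1 FPKM in female striatum (n = 16), against 6.07, 6.74 and 7.80 FPKM in male striatum (n = 15), with no overlap. Female over male log2 changes of Kdm6a were 0.53 ± 0.04 in striatum (adjusted p = 9.61e-11), 0.45 ± 0.04 in cortex (adjusted p = 5.56e-09) and 0.52 ± 0.06 in liver (adjusted p = 1.27e-08). The other X-linked members, Rbbp7, Scml2, Bcor and Bcorl1, were not called in brain.

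In liver 21 Polycomb genes differed between females and males, 8 higher and 13 lower in females (53.8%, against 49.2% of all genes, of which 24.4% were higher and 24.8% lower). This split turns with the scale: limma on log2 FPKM called 17 higher and 7 lower, with the median change of all genes at 0.14, against 0.00 by scaled counts. Pcgf2 had 1.08, 1.45 and 2.03 FPKM in female liver, against 1.87, 2.31 and 3.10 FPKM in male liver, a change of -0.79 (adjusted p = 2.47e-09). Cbx7 had 2.81, 4.15 and 6.08 FPKM in females, against 1.49, 2.49 and 3.47 FPKM in males, and rose by 0.61 in females. Pcgf6 had 2.09, 2.88 and 4.09 FPKM in females, against 3.20, 4.13 and 5.31 FPKM in males, a change of -0.63. The sexes overlapped for each of these 3 genes. Also higher in females were Phf19 (0.77), Cbx6 (0.47), Bcor (0.35), Cbx2 (0.31), Ring1 (0.18) and Jarid2 (0.12), the call of Jarid2 being lost in 22 of 32 fits without 1 library (adjusted p up to 0.0824) and that of Cbx2 without neo-in WT female replicate 1 (adjusted p = 0.0745). Lower in females were Epop, Rbbp4, Rybp, Yaf2, L3mbtl2, Pcgf5, Bmi1, Bap1, Rnf2, Eed and Rbbp7, by between -0.73 for Epop and -0.13 for Rbbp7. On log2 FPKM the calls of Eed, Rbbp7, Rnf2, Bmi1, Pcgf5 and Bap1 were lost.

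**Figure D4:**
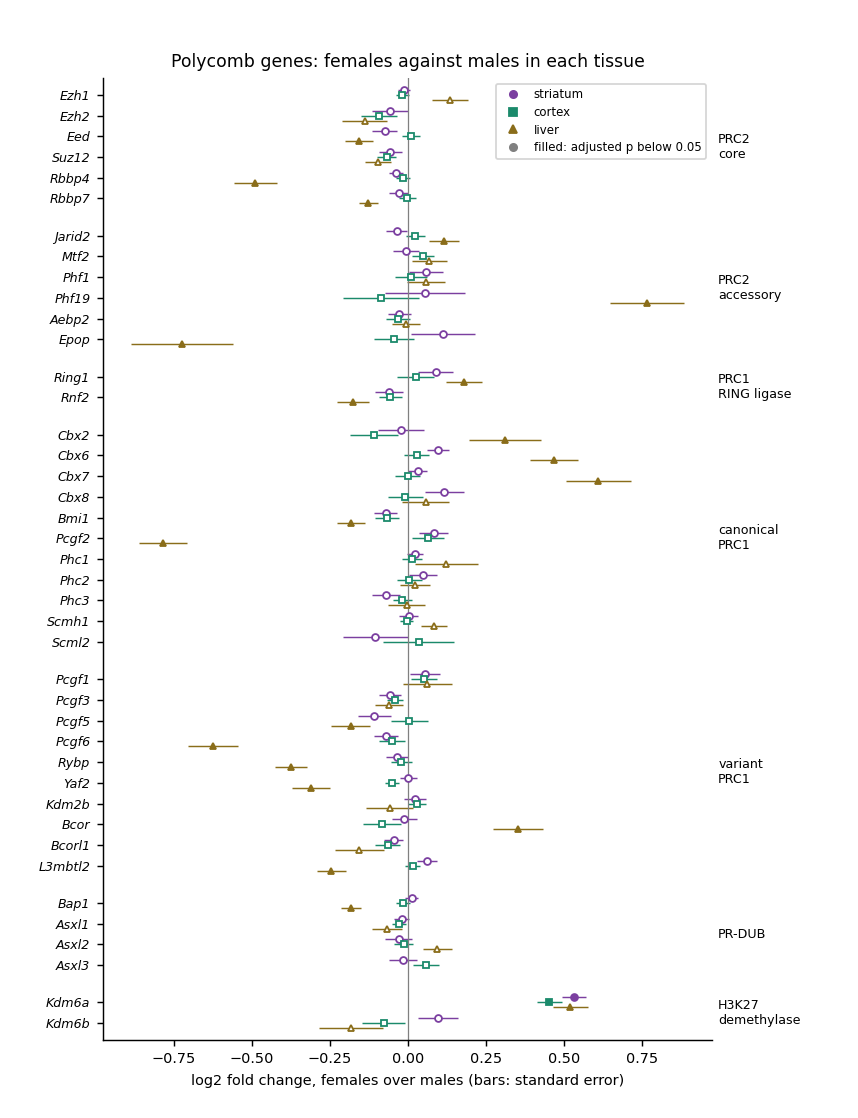
Female over male log2 change of each Polycomb gene in striatum, cortex and liver over all genotypes and lines, filled where the adjusted p is below 0.05. Kdm6a is filled in all 3 tissues at 0.53, 0.45 and 0.52, and every other filled point is from liver.

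Levels in WT tissue were compared per transcript length, in FPKM, as the lowest, median and highest of 16 libraries. Ezh1 had 19.1, 20.0 and 21.8 FPKM in striatum, 18.0, 19.9 and 21.5 FPKM in cortex and 3.58, 5.08 and 6.31 FPKM in liver. Ezh2 had 4.05, 5.60 and 7.08 FPKM in striatum, 2.53, 3.26 and 3.91 FPKM in cortex and 1.48, 1.93 and 2.83 FPKM in liver. In each tissue the lowest FPKM level of Ezh1 was above the highest of Ezh2. Among chromobox genes Cbx6 was high in brain, with medians of 59.4 FPKM in striatum and 80.4 FPKM in cortex, against 1.02 FPKM in liver, while Cbx8 had medians of 2.48, 2.61 and 1.88 FPKM in striatum, cortex and liver and Cbx2 of 1.27, 0.912 and 2.02 FPKM. Asxl3 had medians of 0.944 FPKM in striatum and 1.35 FPKM in cortex and had a median of 0 FPKM in liver, its highest liver value being 0.0063 FPKM.

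Of the 41 genes, 22 had their highest median in striatum, 16 in cortex and 3 in liver, the last being Eed, Phf19 and Cbx2. All liver libraries lay below all brain libraries for 30 genes. All striatum libraries were above those of both other tissues for 5 genes and all cortex libraries for 3. These counts rest on FPKM, and the shares over all genes are not given here, so they do not set the Polycomb genes apart. In the fit of WT striatum against WT cortex 16 Polycomb genes were higher and 10 lower (63.4%, against 64.2% of all genes). The largest differences were those of Epop (-2.86), Ezh2 (0.82), Yaf2 (-0.72), Scmh1 (0.66), Cbx2 (0.58) and Rybp (0.56). In liver against cortex 36 genes were called (87.8%, against 92.5% of all genes), with Asxl3 (-8.58), Cbx6 (-5.32) and Epop (-4.20) at the lower end and Cbx2 (2.17) and Phf19 (2.06) at the higher end. In that fit the median log2 change of all genes was -0.25, and 12 Polycomb genes were higher and 24 lower by scaled counts but 3 higher and 38 lower by FPKM, 9 of the called genes changing sign with the scale. Called or not, 11 Polycomb genes changed sign, among them Ezh2 and Cbx8, so their lower FPKM in liver than in cortex depends on the scale.

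**Figure D5:**
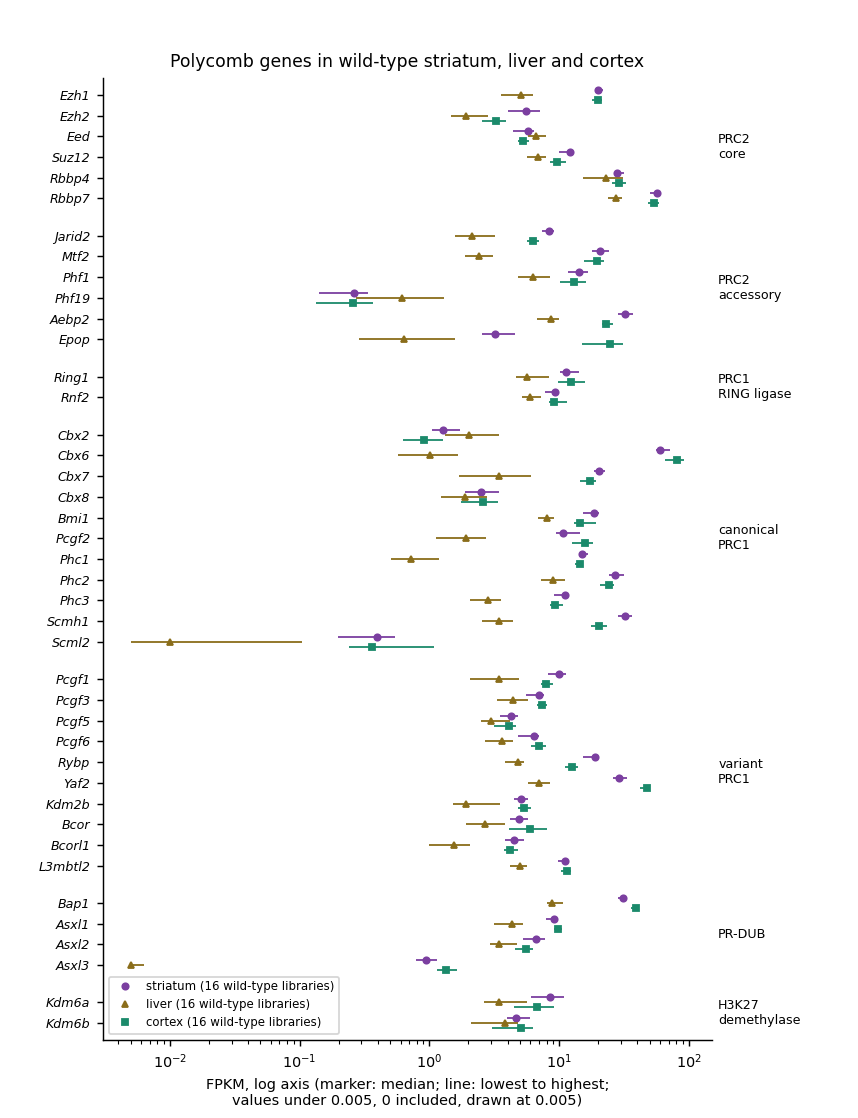
FPKM of each Polycomb gene in WT striatum, liver and cortex on a log axis, as the median (marker) and the lowest to highest of 16 libraries (line), values under 0.005 being drawn at 0.005. Liver lies lowest for most genes, Epop is higher in cortex than in striatum, and Scml2 and Asxl3 are near the floor in liver.

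The balance between paralogs was tested as the log2 FPKM ratio of 8 pairs in the 3 tissues and 2 lines, 48 exact two-sided permutation tests with Benjamini-Hochberg adjustment. Genotype was permuted over all animals of a comparison without keeping the sexes apart, unlike in the edgeR fits. A ratio of genes that differ by sex can thus have a wider spread, and a ratio that did not pass does not show an unchanged balance. On FPKM, 1 ratio passed, Rybp over Yaf2 in neo-out cortex, at -1.73 ± 0.09 in Het and -1.93 ± 0.07 in WT (SD, n = 8 each), a difference of 0.20 (exact p = 0.000622, adjusted p = 0.0298). Ezh1 over Ezh2 in neo-in striatum averaged 1.91 ± 0.12 in Het and 1.74 ± 0.09 in WT, a difference of 0.17 that did not pass (exact p = 0.00435, adjusted p = 0.104). Rbbp4 over Rbbp7 differed by 0.17 in neo-in and 0.19 in neo-out striatum, which did not pass either (exact permutation tests, adjusted p = 0.107). On ratios of counts 7 of the 48 tests passed, and on FPKM none passed in 11 of the 95 repeats that left out 1 library and 2 passed in 3 of them.

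Other genes of the pathway were taken from 4 lists. Of 30 Polycomb partners 9 rose and 3 fell in Het striatum over both lines, where 16.5% of all genes rose and 15.8% fell, with a median log2 change of 0.03. They included Sfmbt2, a Polycomb gene of the PhoRC type, which had 1.63, 1.85 and 2.07 FPKM in neo-in Het, against 0.618, 0.745 and 0.935 FPKM in neo-in WT, and 1.87, 1.93 and 2.15 FPKM in neo-out Het, against 0.607, 0.731 and 0.814 FPKM in neo-out WT, a rise of 1.45 ± 0.05 (adjusted p = 4.19e-19). Hdac1, a histone deacetylase, rose by 0.34 ± 0.03, and E2f6, the DNA-binding partner of a variant PRC1, fell by 0.16 ± 0.03. Of 26 Trithorax and acetylation genes, which oppose Polycomb, 7 rose and 3 fell (median 0.05). Among those that rose were Kansl1 (0.20), Smarca2 (0.11) and Ash2l (0.11), and the 3 that fell are not named here.

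Of 45 developmental regulators known as Polycomb targets, 20 passed the filter on low counts in striatum, and 5 of these rose and none fell (median 0.19). A target that is off in WT passed the filter through its Het level alone, so this count and median describe the genes that passed. Wt1 had 620 counts over 8 neo-in Het libraries, against 7 over 8 neo-in WT libraries of which 4 were at 0, and Onecut1 had 359 counts, against 12. Cdkn1c, which codes for a cell-cycle inhibitor, rose by 0.58, Nkx2-2 by 0.43 and Onecut2 by 0.31. Of 18 proliferation genes, 1 fell, Plk1 by 0.54 ± 0.08, and none rose (median 0.03). These counts stand beside the 32.3% of all genes called in striatum and 6.83% in cortex. In cortex 2 of 30 partners rose, 2 of 26 Trithorax and acetylation genes rose and 1 fell, 1 of 17 targets rose and none of 17 proliferation genes was called. The calls of Kansl1 and Onecut2 among them were lost in 24 and 16 of 32 fits without 1 library, with adjusted p of up to 0.083 and 0.0744. In liver none of the 4 lists held a called gene.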

How the data were processed

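Total RNA was extracted from flash-frozen tissue with the miRNeasy kit and enriched before library construction, per the labels' protocols. CASAVA 1.8.2 and the mm10 build are named in the submitters' processing notes; for the aligner, the counting tool and the strand setting no name is given in the sources used here. The authors deposited 1 table of expected counts per gene, 1 of FPKM and 1 of sample data, which holds the CAG repeat number and a count of effective alignments of each library. In the expected counts 27.38% of values above 1 were not whole at a tolerance of 0.001, and they were rounded. Columns were matched to samples by their names, and 0 were left over.

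The 41 genes and all lists were chosen with earlier results of these data known. For each tissue, genes were filtered with filterByExpr over line, genotype and sex, scaled by TMM and fitted with edgeR 4.0.16 (R 4.3.3), with 1 mean per line, genotype and sex. Female and male differences were averaged with the same weight, and both lines were averaged likewise. Calls use edgeR's quasi-likelihood test with a Benjamini-Hochberg adjusted p below 0.05 over all genes tested. Effects of tissues were compared in a fit with the animal as a block. CPM are from TMM-scaled counts, except those of Htt and of the clock score, which use library totals without TMM scaling. Paralog ratios used the deposited FPKM. Genes named are all Polycomb genes called in a comparison, with the rest accounted for by name or number, and from the pathway lists those with the largest called changes. The script was tested on simulated counts with known changes. Alternatives were DESeq2's size factors, no filter, limma 3.58.1 on log2 FPKM with 0.1 added, DESeq2 1.42.0, the clock score as a covariate, the replicate number as a block, each sex alone, and omission of the Slc17a7-high or Ttr-high libraries and of each library in turn. The WT line comparison and the sex comparison were added after the data had been seen. Over 141 pairs of replicates the lowest chi-square per gene was 4.14, so none was 1 library deposited a second time. Replicates are separate animals by the labels' animal codes. RefSeq promoter windows were matched by symbol; Epop, Cbx2, Pcgf1, Rybp, Yaf2, Asxl3 and Kdm6b had none in the table.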

Additional observations from a re-analysis of the deposited data

Results flagged for a closer look

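Of 80 groups of 7 or 8 libraries checked for a called Polycomb gene, 5 held a library far from the others by Dixon's criterion, which chance alone meets in about 1 in 20 groups. Ezh1 was at 78.7 CPM in striatum of neo-in WT male replicate 4, where the other 7 libraries ran from 71.4 to 74.1 CPM, and at 80.0 CPM in cortex of neo-in Het female replicate 2, where the others ran from 72.0 to 75.4 CPM. Asxl3 was at 15.3 CPM in striatum of neo-in Het male replicate 2, against 10.9 to 12.9 CPM in the others. Asxl1 was at 55.4 CPM in striatum of neo-out WT female replicate 3, against 60.7 to 64.6 CPM in the others. Cbx8 was at 6.35 CPM in cortex of neo-out Het female replicate 3, against 8.27 to 9.95 CPM in the others.

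The effect in striatum less that in cortex, over both lines, passed edgeR's test of the difference for Cbx8 (0.47), Pcgf2 (0.19), Epop (-0.71), Scmh1 (-0.22) and Cbx7 (-0.18). For Rybp in neo-out liver the female less the male genotype effect was -0.76.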

How the results depend on the processing

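With both sexes in the fit, Cbx8 and Epop kept their calls in striatum, in each line and over both, under the other alternatives and every omission of 1 library, and so did Scmh1, Bap1, Scml2, Pcgf2, Pcgf6, Bmi1 and Asxl3 over both lines. In each sex alone, over both lines, Cbx8, Epop, Scmh1 and Bap1 were called in females and in males, while Scml2 and Pcgf6 missed in males and Pcgf2, Bmi1 and Asxl3 in females. Of the values of single genes under an alternative or omission, 4286 kept direction and side of the threshold, 358 lost the call and 1 reversed, Rbbp7 between the sexes in liver (0.008 by limma on log2 FPKM). Counts of called Polycomb genes that moved by over 1.5 times were these. In striatum the clock score covariate gave 6 in neo-in in place of 10, omission of the Slc17a7-high or Ttr-high libraries gave 3 in neo-out in place of 9, and over both lines females alone gave 9 and males alone 8 in place of 16. In cortex neo-out gave 0 in place of 1 with no filter, with the clock score and with the replicate block, and 2 by DESeq2; over both lines limma and the replicate block gave 2 each, females alone 1 and males alone 0 in place of 4; and between WT lines limma gave 2 in place of 1. In liver the genotype by sex test in neo-out gave 2 by DESeq2 in place of 1, and between WT lines the clock score gave 0 in place of 5. The paralog ratios gave 7 calls on ratios of counts in place of 1. Fewer animals enter the fits of 1 sex and those without the Slc17a7-high or Ttr-high libraries. The cause of the moves was not tested.

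Leaving out each library gave 7 to 10 calls in neo-in striatum, 5 to 10 in neo-out, 14 to 20 over both lines, 0 to 2 in neo-out cortex, 2 to 4 over both lines there, 0 to 1 for genotype by sex in neo-out liver, 4 to 8 between WT lines and 20 to 23 between sexes in liver, and 0 to 2 paralog ratios. Replicate numbers do not pair the samples: over 15 same-numbered pairs in striatum their deviations correlated by -0.18 to 0.22, with 4 pairs over 0.1, and with the replicate block 10, 7 and 16 genes were called in neo-in, neo-out and both lines. Depth limits the low genes such as Scml2 most, and the unknown strand setting limits genes that overlap others.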
